A study of Caenorhabditis elegans with 6 samples.

Results

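Cathepsins, aspartic proteases and saposin-like proteins break down food and cell contents in the acid compartments of the worm. The genes described here are those that the deposited count table names with the prefix cpr, cpz, cpl, asp or spp followed by a dash and a number. There were 38 of them among 45836 gene rows: 6 cpr genes (cathepsin B-like cysteine proteases), 2 cpz genes (cathepsin Z-like), the cathepsin L gene cpl-1, 6 asp genes (aspartic proteases, the cathepsin D and pepsin type) and 23 spp genes (saposin-like proteins). RNA of whole Caenorhabditis elegans L1 larvae was counted in 6 libraries. The div-1 mutant group (3 libraries) was strain BCN6101, which the labels give as EU548 with a pdaf-21::mCherry reporter and with the or148 allele of div-1, a gene for a subunit of DNA polymerase alpha-primase. The wild-type group (3 libraries) was strain BCN1050, which the labels place in the N2 background and which carries the same reporter. Both groups thus share the transgene, and each is 1 strain. In both groups the parents were bleached and the larvae hatched overnight in M9, a buffer without food, before RNA was taken. The growth temperature was 20 degrees C.

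In the worm, most digestion happens in the lumen of the intestine and in lysosomes, including the gut granules of intestinal cells. Cysteine and aspartic cathepsins are made as inactive precursors, are activated at low pH and cut proteins taken up by endocytosis, yolk and worn-out cell parts. Saposin-like proteins bind or open lipid membranes. In mammals, saposins help lysosomal enzymes reach their lipid substrates, and several worm members, known as caenopores, form pores in bacterial membranes. Whole larvae were sampled, so a lower level may mean fewer cells of a type or less RNA per cell, which cannot be told apart.

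The 6 libraries held between 25051167 and 27632878 counts over all rows. In the table, div-1 stood at 44.8, 29.3 and 31.1 CPM (counts per 1000000 counts) in mutant larvae, against 24.6, 30.2 and 43.3 CPM in wild-type larvae, and since or148 is a point allele this level does not check the strain. All 10 intestinal markers listed, among them the gut GATA factor elt-2, had counts. Their summed level was 1759 to 1836 CPM in mutant larvae, against 1640.4 to 1874 CPM in wild-type larvae. The mutant libraries also had a low level of mut-16, a gene of small RNA silencing, at 4.66 to 8.34 CPM against 50.6 to 53.5 CPM in the wild type, so an effect of div-1 and one of mut-16 cannot be told apart. Mutant library 1 and wild-type libraries 1 and 3 stood apart from the others of their group in some values, as given beside the results concerned.

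No cathepsin, aspartic protease or saposin-like gene passed the threshold between the groups. Of the 38 genes, 33 had enough counts to be tested, and 0 of 33 were called by edgeR's quasi-likelihood test with p values adjusted by Benjamini and Hochberg and held to 0.05. Among them, 0 were higher and 0 lower, against 0.884% and 0.0123% of the 16289 genes tested in all, or 0.896% together. At an unadjusted p under 0.05, 2 of the 33 were higher in the mutant (spp-20 and cpr-2) and 0 were lower, against 8.26% and 2.44% of all tested genes. DESeq2 called 1 of the 33, spp-20 (3.03%), a share near the 3.42% of genes it called in all. The log2 fold change, mutant over wild type, had a median of 0.090 over the 33 genes and -0.029 over all tested genes, and 21 of the 33 were positive (46% of all tested genes). Leaving out div-1 mutant library 1 moved the median of the 33 to 0.30, and leaving out mutant library 2 moved it to -0.069. Without mutant library 1, 1 of the 33 passed edgeR's threshold (cpr-1), against 0.704% of all genes tested in that fit. Without wild-type library 1, 1 of 34 passed (cpr-4), against 0.251% of all genes. For 24 of the 33, the 95% interval of the difference, not adjusted for the number of genes, lay within a 2-fold change in either direction. This held for 11478 of the 16289 genes tested in all, a similar share.

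**Figure D1:**
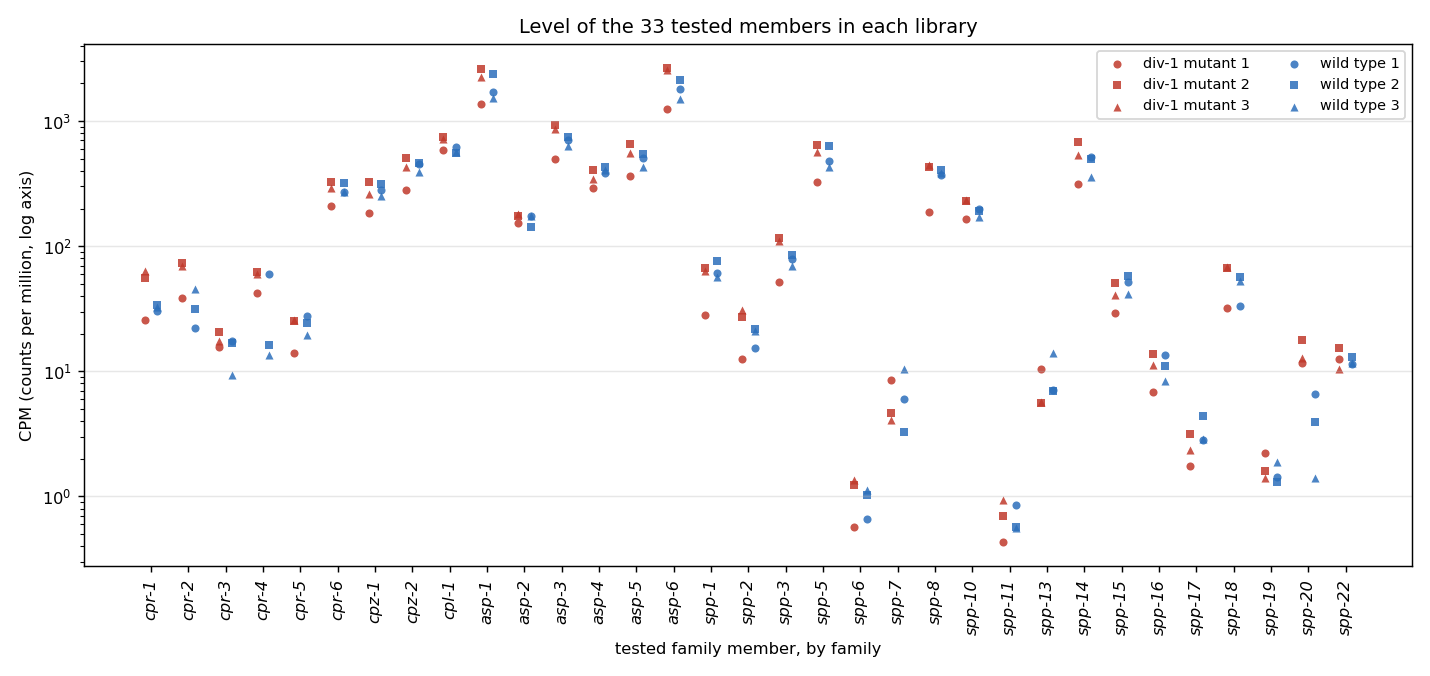
Level of each of the 33 tested genes in each library, in CPM on a log axis; red symbols are div-1 mutant libraries and blue symbols wild-type libraries, with the same shape for the same replicate number. The genes span from under 1 CPM (spp-11) to 2669.6 CPM (asp-6 in mutant library 2), and red circles (mutant library 1) lie lowest among the red symbols for 29 of the 33 genes.

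Together, the 38 genes took 0.701%, 1.18% and 1.11% of the gene counts in mutant libraries 1, 2 and 3, and 0.850%, 0.985% and 0.786% in wild-type libraries 1, 2 and 3. Mutant library 1 held the lowest share and mutant library 2 the highest, so the wild-type libraries lay inside the range of the mutant. The mean summed CPM of the 38 genes in the mutant was 1.08 times that in the wild type with all libraries and 1.26 times without mutant library 1, and for the asp genes these ratios were 1.104 and 1.30. The 6 asp genes made up 61.1% of the summed CPM of the 38 and the 23 spp genes 20.1%. asp-1 and asp-6 alone made up 42.1%.

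Per length, the aspartic proteases asp-1 and asp-6 and the small saposin-like proteins spp-5 and spp-14 stood highest. Divided by exon length (CPM per kb of exon), asp-1 reached 1733 ± 537 in mutant larvae, against 1582 ± 379 in wild-type larvae (SD, n = 3), and asp-6 reached 1687 ± 621 in mutant larvae, against 1418 ± 244 in wild-type larvae. spp-14 stood at 1438 ± 519 CPM per kb in mutant larvae, against 1287 ± 249.9 in wild-type larvae, and spp-5 at 1385 ± 443 in mutant larvae, against 1383 ± 284 in wild-type larvae. Within each group, any pair of these 4 genes differed by less than the larger SD of the pair. The genes were measured in the same libraries, and mutant library 1 was the lowest mutant library for all 4. The SD thus holds library differences that the genes share, so it does not settle their order. cpl-1 came next, with 575 ± 68.9 CPM per kb in mutant larvae, against 488 ± 30.1 in wild-type larvae, followed by asp-3, asp-5, spp-8 and the pair cpz-1 and cpz-2. The cpr genes started at rank 13 with cpr-6, at 219 ± 48.0 CPM per kb in mutant larvae, against 229.7 ± 22.9 in wild-type larvae. At the other end, spp-4, spp-9, spp-12, spp-21 and spp-23 had too few counts to be tested. Over the 6 libraries spp-4 had 52 counts, spp-12 had 60, spp-23 had 19, and spp-9 and spp-21 had 5 each.

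**Figure D2:**
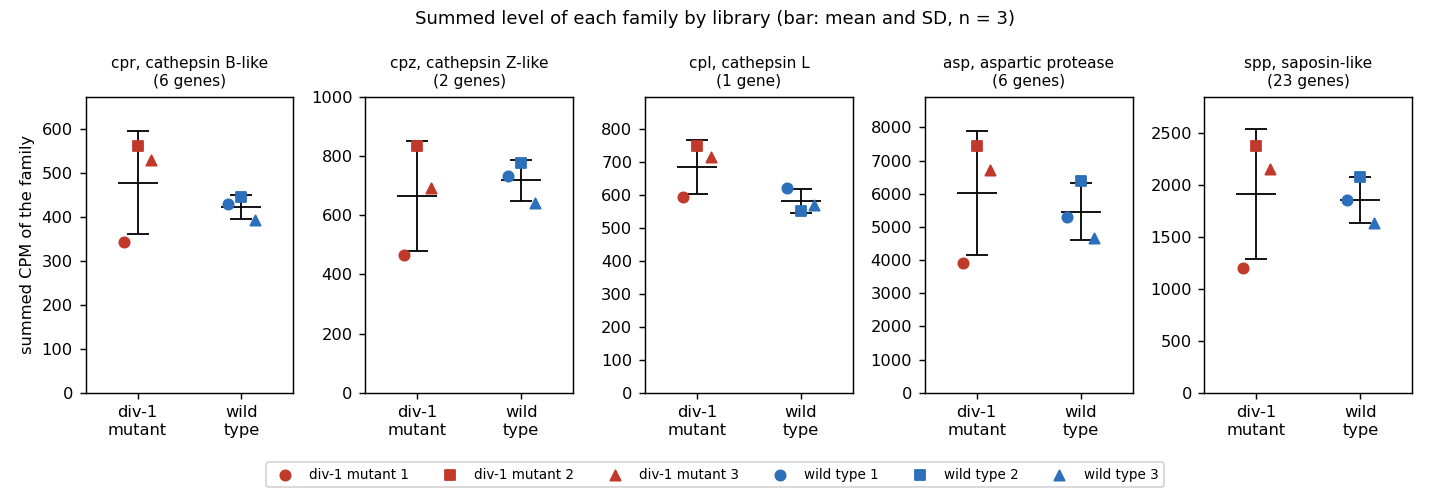
Summed CPM of each family in each library, from 0, with the mean and SD of the 3 libraries of each group; the families have different axes. In every family mutant library 1 (red circle) is the lowest mutant library, and in the asp family the mutant libraries run from 3899 to 7438 CPM around wild-type libraries of 4669 to 6371 CPM.

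The cathepsin B-like genes held the larger differences among the proteases, and none passed the threshold. cpr-2 had 38.6, 73.5 and 69.0 CPM in mutant libraries 1, 2 and 3, and 22.3, 31.2 and 45.4 CPM in wild-type libraries 1, 2 and 3. Mutant library 1 lay below wild-type library 3, so the groups overlapped. Its log2 fold change was 0.87 with an SE of 0.31 (edgeR adjusted p = 0.363). It did not pass with any 1 library left out (edgeR adjusted p = 0.157 without mutant library 1 and 0.193 without wild-type library 3). With those 2 libraries, which make the groups overlap, left out together after seeing the data, the log2 fold change was 1.41 (edgeR adjusted p = 0.0117), in a fit that called 1.48% of all genes.

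cpr-1, a cysteine protease of the gut, had 25.5, 55.5 and 63.3 CPM in mutant libraries 1, 2 and 3, and 30.2, 33.9 and 32.5 CPM in the wild type. The wild-type libraries were close together, 2 mutant libraries lay above them and mutant library 1 lay below. The log2 fold change was 0.58 with an SE of 0.30 (edgeR adjusted p = 0.560). Without mutant library 1 it was 0.88 and past the threshold (edgeR adjusted p = 0.0455).

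cpr-4, whose secreted protein carries a signal of irradiated worms to unexposed tissue, had 42.1, 62.2 and 59.5 CPM in mutant libraries 1, 2 and 3, and 59.7, 16.2 and 13.5 CPM in wild-type libraries 1, 2 and 3. Wild-type library 1 stood with the mutant libraries and the other two lay far lower. The log2 fold change was 0.87 with an SE of 0.53 (edgeR adjusted p = 0.613), and without wild-type library 1 it was 1.87 and past the threshold (edgeR adjusted p = 0.0434). Without wild-type library 3 the log2 fold change was 0.52. Of the 12 fasting-response genes listed, 2 made up most of the sum of 5303 CPM in wild-type library 1. The glyoxylate cycle gene icl-1 stood at 4072 CPM there and at 536 to 996 CPM in the other 5 libraries, and the acyl-CoA synthetase gene acs-2 stood at 879 CPM there and at 1.95 to 7.84 CPM in the other 5. The other 10 genes of the list summed to 265 to 298 CPM in the mutant and to 353, 338 and 344 CPM in wild-type libraries 1, 2 and 3. Among them hacd-1 stood at 72.7 CPM in wild-type library 1 and at 2.93 to 3.35 CPM in the other 5 libraries. The lipase gene lipl-2 was lower in wild-type library 1, at 101 CPM, than in wild-type libraries 2 and 3, at 217 and 139 CPM. edgeR called 1 of the 11 tested genes of the list, ech-9 (edgeR adjusted p = 0.0220), or 9.09% against 0.896% of all tested genes. It lay higher in the mutant, at 3.15, 3.79 and 3.84 CPM against 0.902, 1.26 and 1.01 CPM in wild-type larvae. The part of these differences in the cpr-4 result was not tested.

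The other cathepsin B-like genes differed less. cpr-3 had 15.5, 20.7 and 17.5 CPM in mutant larvae, against 17.5, 16.9 and 9.39 CPM in wild-type larvae, with a log2 fold change of 0.30. cpr-5 had 14.1, 25.1 and 25.6 CPM in mutant larvae, against 27.7, 24.1 and 19.6 CPM in wild-type larvae (log2 fold change -0.14). cpr-6, the most abundant of the family, had 208, 324 and 294 CPM in mutant larvae, against 273, 323 and 273 CPM in wild-type larvae (log2 fold change -0.072). The groups overlapped for all 3 genes.

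Of the cathepsin Z-like genes, cpz-1, which acts in moulting, had 184, 326 and 263 CPM in mutant larvae, against 279, 317 and 253 CPM in wild-type larvae (log2 fold change -0.14, SE 0.22). cpz-2 stood at 282, 508 and 429.6 CPM in mutant larvae, against 454, 459.8 and 389 CPM in wild-type larvae (log2 fold change -0.095, SE 0.22). The wild-type libraries lay inside the mutant range for both.

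cpl-1, the cathepsin L that processes yolk proteins in the embryo and is needed for embryos to develop, had 592, 748 and 714 CPM in mutant libraries 1, 2 and 3, and 621, 553 and 569 CPM in the wild type. Mutant libraries 2 and 3 lay above the wild type, and mutant library 1 lay within it. The log2 fold change was 0.24 with an SE of 0.16 (edgeR adjusted p = 0.649). Its 95% interval ran from -0.13 to 0.60, so a difference of 2-fold lay outside it.

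The aspartic proteases overlapped between the groups for all 6 genes. asp-1, a protease of intestinal cells, had 1357, 2602 and 2232 CPM in mutant libraries 1, 2 and 3, and 1722, 2394 and 1536 CPM in the wild type (log2 fold change 0.13). asp-6 had 1239, 2669.6 and 2544 CPM in mutant larvae, against 1819, 2114 and 1492 CPM in wild-type larvae (log2 fold change 0.25). In both genes mutant library 1 was the lowest of the 6 libraries and mutant library 2 the highest.

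asp-3 and asp-4 are the lysosomal proteases of this family that take part in necrotic death of neurons. asp-3 had 496, 932 and 858 CPM in mutant larvae, against 704, 746 and 637 CPM in wild-type larvae (log2 fold change 0.13). asp-4 had 292, 404 and 345 CPM in mutant larvae, against 387, 429 and 403 CPM in wild-type larvae, and its log2 fold change of -0.23 was the lowest of the family (edgeR adjusted p = 0.674). asp-5 had 362, 655 and 559 CPM in mutant larvae, against 507, 545 and 428 CPM in wild-type larvae. asp-2 lay between 152 and 179 CPM in mutant larvae and between 144 and 174 CPM in wild-type larvae. The log2 fold changes were 0.090 for asp-5 and 0.048 for asp-2. The 95% interval lay within a 2-fold change for all 6 asp genes.

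**Figure D3:**
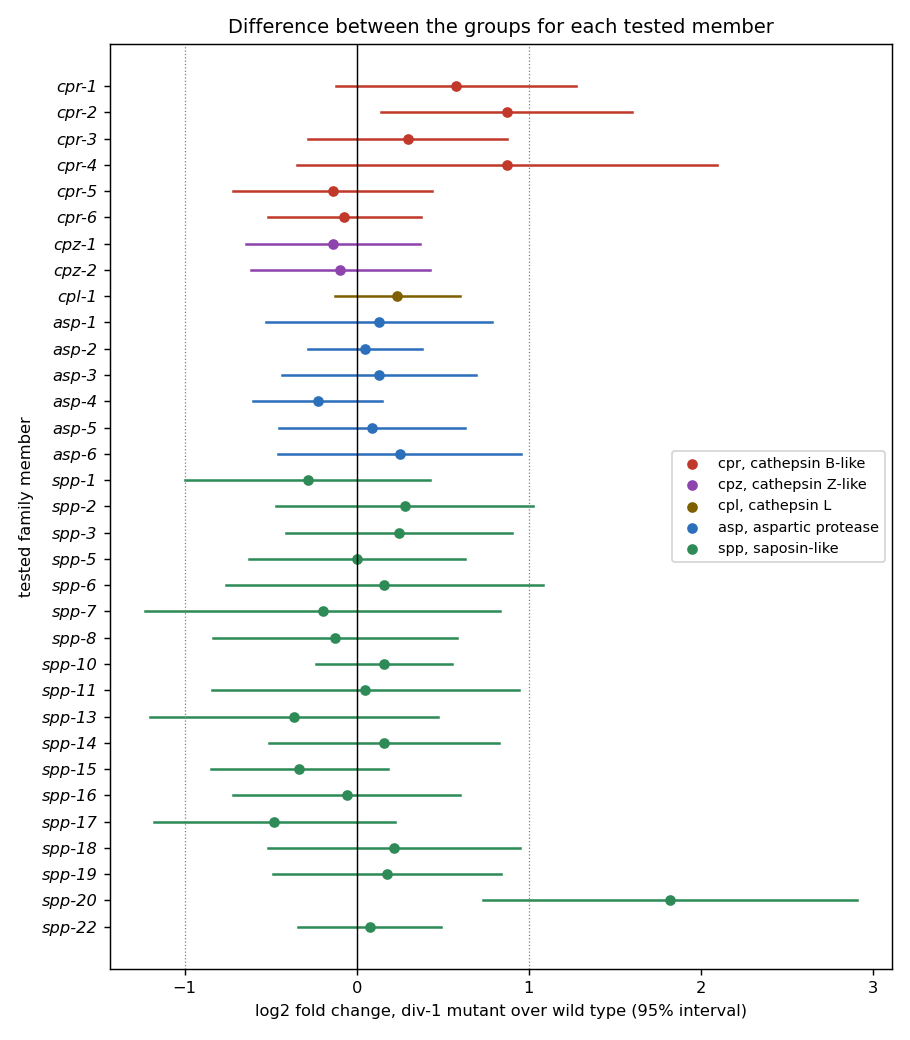
Log2 fold change of each tested gene, mutant over wild type, with its 95% interval from the edgeR fit, coloured by family; dotted lines mark a 2-fold change. The intervals of spp-20 and cpr-2 lie above 0 and the other 31 include it.

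Among the saposin-like genes, spp-20 had the largest difference. It stood at 11.7, 17.7 and 12.7 CPM in mutant libraries 1, 2 and 3, and at 6.56, 3.93 and 1.41 CPM in wild-type libraries 1, 2 and 3. All mutant libraries lay above all wild-type libraries, and spp-20 was the one tested gene of the 33 whose groups did not overlap, and it lay higher in the mutant. Of all tested genes, 17.9% had groups that did not overlap, 10.2% with the mutant higher and 7.73% with it lower. The log2 fold change was 1.82 with an SE of 0.47, its 95% interval ran from 0.73 to 2.91, and without wild-type library 3 it was 1.41. It did not pass edgeR's threshold (edgeR adjusted p = 0.160) and passed that of DESeq2 (DESeq2 adjusted p = 0.00559). The adjusted p lay between 0.00559 and 0.388 over the 15 alternatives, and DESeq2 was the one below the threshold. In the annotation spp-20 overlaps twk-10, a potassium channel gene on the opposite strand, which had 4.33, 5.36 and 5.88 CPM in mutant larvae, against 8.81, 8.17 and 4.11 CPM in wild-type larvae. Whether counting used strand is not given, so reads in the overlap cannot be assigned. spp-19, which overlaps twk-10 too and lay below it in level (a mean of 1.64 CPM beside 6.11 CPM), had 2.22, 1.61 and 1.39 CPM in mutant larvae, against 1.43, 1.30 and 1.90 CPM in wild-type larvae.

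The caenopores spp-1 and spp-5 are pore-forming proteins of the intestine that act on swallowed bacteria. spp-1 had 28.4, 67.6 and 63.9 CPM in mutant libraries 1, 2 and 3, and 61.2, 76.6 and 56.9 CPM in the wild type (log2 fold change -0.28, edgeR adjusted p = 0.789). spp-5 had 328, 640.1 and 569.9 CPM in mutant larvae, against 478, 629 and 427 CPM in wild-type larvae, a log2 fold change of 0.0029. Mutant library 1 was the lowest of the 6 libraries for both. The third caenopore with a known role, spp-12, had 31, 3 and 14 counts in mutant larvae, against 6, 4 and 2 counts in wild-type larvae, too few to be tested.

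spp-14, the most abundant saposin-like gene beside spp-5, had 314, 681 and 540.1 CPM in mutant larvae, against 521, 498 and 356 CPM in wild-type larvae (log2 fold change 0.16). spp-8 had 187, 433 and 449 CPM in mutant larvae, against 368, 409 and 387 CPM in wild-type larvae (log2 fold change -0.12), with the wild-type libraries inside the mutant range. spp-10, which resembles the mammalian prosaposin precursor, had 164, 229.8 and 233 CPM in mutant larvae, against 199, 192 and 171 CPM in wild-type larvae (log2 fold change 0.16).

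On the X chromosome, spp-3, spp-2, spp-6, spp-4 and spp-5 lie next to each other in the annotation, and their levels differed widely. spp-3 had 52.1, 116 and 109 CPM in mutant larvae, against 79.7, 85.5 and 68.9 CPM in wild-type larvae. spp-2 had 12.5, 27.3 and 31.2 CPM in mutant larvae, against 15.4, 21.99 and 21.1 CPM in wild-type larvae. For both, mutant library 1 lay below all wild-type libraries and the other mutant libraries above them. Per kb of exon, spp-5 stood at 1385 CPM in mutant larvae, against 1383 in wild-type larvae, spp-3 at 269.7 in mutant larvae, against 227 in wild-type larvae, spp-2 at 48.1 in mutant larvae, against 39.6 in wild-type larvae, and spp-6 at 3.27 in mutant larvae, against 2.91 in wild-type larvae. spp-4 had 52 counts over the 6 libraries. The log2 fold changes of the 4 tested genes of the row lay between 0.0029 and 0.28. Inserts were short (18 to 36 bases), and how counting treated reads shared by similar genes is not given, so values of neighbours that share sequence are uncertain. Of the 38 genes, 9 overlap another protein-coding gene on the opposite strand. Besides spp-19, that gene had the higher mean CPM over the 6 libraries for spp-15 and spp-16. The means were 87.9 CPM (C48E7.6) beside 45.2 CPM for spp-15, and 31.3 CPM (F32D8.7) beside 10.8 CPM for spp-16. For spp-20, twk-10 was the more abundant gene in each wild-type library and the less abundant one in each mutant library.

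The other saposin-like genes lay between log2 fold changes of -0.48 (spp-17) and 0.28 (spp-2). spp-17 had 1.75, 3.17 and 2.34 CPM in mutant larvae, against 2.83, 4.39 and 2.86 CPM in wild-type larvae. spp-15 had 29.2, 50.5 and 40.4 CPM in mutant larvae, against 52.2, 57.8 and 41.2 CPM in wild-type larvae (log2 fold change -0.33). spp-18 had 32.1, 66.6 and 68.4 CPM in mutant larvae, against 33.5, 57.1 and 53.0 CPM in wild-type larvae (log2 fold change 0.22). The groups overlapped in each of these, and mutant library 1 was the lowest of the 6 libraries in each. spp-16 had 6.87, 13.8 and 11.2 CPM in mutant larvae, against 13.5, 11.1 and 8.43 CPM in wild-type larvae (log2 fold change -0.058). spp-11 lay between 0.429 and 0.942 CPM in mutant larvae and between 0.564 and 0.861 CPM in wild-type larvae. spp-22 lay between 10.5 and 15.3 CPM in mutant larvae and between 11.5 and 13.1 CPM in wild-type larvae.

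The coefficient of variation, the SD as a share of the mean, had a median over the 33 genes of 30.6% in the mutant libraries and 17.2% in the wild-type libraries. Over all tested genes the medians were 17.5% in the mutant libraries and 17.03% in the wild-type libraries. The mutant value was the larger one for 26 of the 33 genes, against 8170 of the 16289 genes tested in all. Without mutant library 1 the mutant median was 8.89% over the 33 genes and 8.71% over all tested genes. With wild-type libraries 1 and 2 alone, the wild-type median was 9.79% over the 33 genes and 10.3% over all tested genes. Mutant library 1 was the lowest mutant library for 29 of the 33 genes, against 43.5% of all tested genes. The median ratio of mutant library 1 to the mean of mutant libraries 2 and 3 was 0.597 for the 33 genes and 0.992 for all tested genes. The ratio reached 0.425 for spp-8, 0.430 for cpr-1, 0.432 for spp-1 and 0.475 for asp-6, and it was 0.810 for cpl-1 and 0.859 for asp-2. In the wild type, library 3 was the lowest for 18 of the 33 genes, with a median ratio of 0.851 to the mean of libraries 1 and 2, against 36.5% and 1.01 for all tested genes.

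A few saposin-like genes went the other way in both of these libraries. spp-7, spp-13 and spp-19 were the 3 genes higher in mutant library 1 than in the mean of the other mutant libraries, with ratios of 1.97, 1.86 and 1.48, and all 3 were also higher in wild-type library 3 than in the other wild-type libraries, with ratios of 2.25, 1.99 and 1.39. spp-7 had 8.55, 4.62 and 4.07 CPM in mutant libraries 1, 2 and 3, and 6.03, 3.28 and 10.5 CPM in wild-type libraries 1, 2 and 3. spp-13 had 10.5, 5.56 and 5.69 CPM in mutant larvae, against 7.09, 6.95 and 14.0 CPM in wild-type larvae. Of the 33 genes, 24 were lower in both of these libraries than in the mean of their group's other libraries, 3 were higher in both and 6 were lower in mutant library 1 alone. Over all tested genes, the deviations of mutant library 1 and wild-type library 3 from their group means correlated at 0.62. Across the 33 genes, the log2 ratios of these libraries to the others of their group correlated at 0.34. Deviations shared by these libraries were thus not particular to the 33 genes. Low values in mutant library 1 were more frequent among the 33 than among all tested genes.

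**Figure D4:**
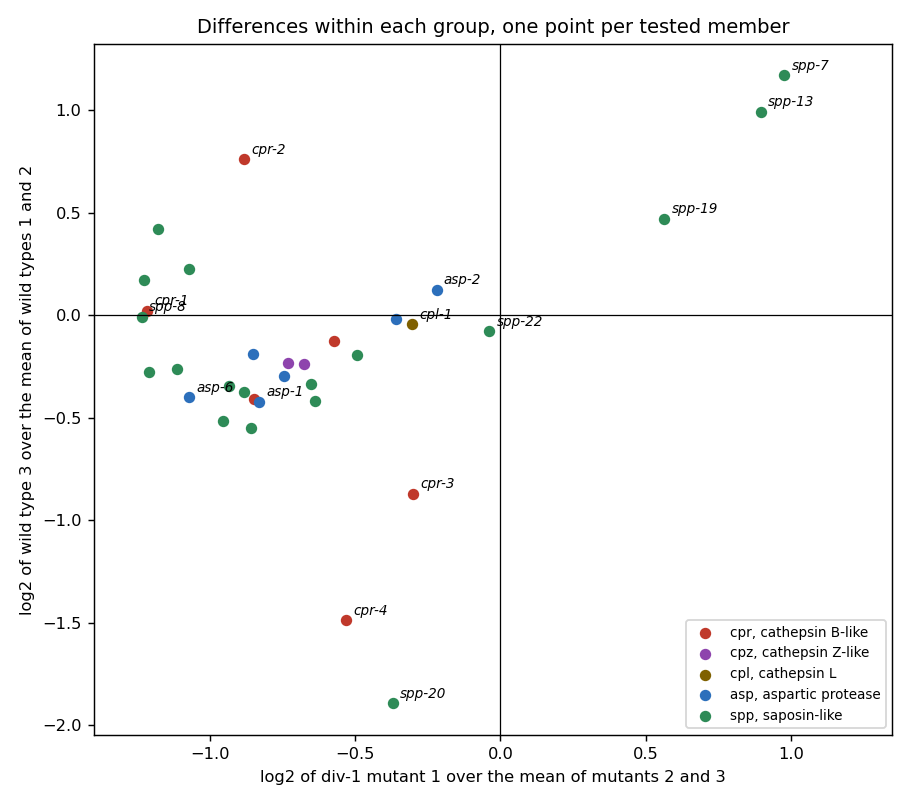
Each point is 1 tested gene; the horizontal axis gives the log2 ratio of mutant library 1 to the mean of mutant libraries 2 and 3, and the vertical axis that of wild-type library 3 to the mean of wild-type libraries 1 and 2. Most points lie left of 0, spp-7, spp-13 and spp-19 lie at the upper right, and cpr-4 and spp-20 lie lowest on the vertical axis.

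Marker levels also differed between these libraries. The 10 intestinal markers summed to 1759 CPM in mutant library 1, against 1826 and 1836 CPM in mutant libraries 2 and 3, and to 1874 CPM in wild-type library 3, against 1679 and 1640.4 CPM in wild-type libraries 1 and 2. The intestinal filament gene ifb-2 (655, 1028 and 931 CPM in mutant libraries 1, 2 and 3) was low in mutant library 1, while the intestinal actin gene act-5 (381, 268 and 305 CPM) was high. The 6 epidermal markers summed to 368 CPM in mutant library 1 against 222 and 236 CPM in the other mutant libraries, and to 439 CPM in wild-type library 3 against 273 and 271 CPM in the other wild-type libraries. The 5 body muscle markers summed to 8451 CPM in mutant library 1 and to 12047 and 11566 CPM in mutant libraries 2 and 3. In the wild type they summed to 9279 CPM in library 3 and to 10182 and 12502 CPM in libraries 1 and 2. The 6 neuronal markers summed to 1360.1 CPM in mutant library 1 and to 2085 and 1819 CPM in mutant libraries 2 and 3. In the wild type they summed to 1605 CPM in library 3 and to 1956 and 2182 CPM in libraries 1 and 2. Both sums were thus lowest in the same library of each group, but not every marker was. The muscle gene hlh-1 and the neuronal gene unc-119 were highest in mutant library 1 and in wild-type library 3. The muscle gene myo-3 was lowest in neither, and the other muscle and neuronal markers were lowest in both. The 5 pharyngeal markers summed to 1363 to 2365 CPM in mutant larvae, against 1574 to 1833 CPM in wild-type larvae, the 6 germline markers to 34.5 to 55.9 CPM in mutant larvae, against 36.12 to 48.9 CPM in wild-type larvae, and the 3 coelomocyte markers to 40.7 to 54.1 CPM in mutant larvae, against 34.2 to 59.5 CPM in wild-type larvae. The part of these differences in the values of the proteases and saposins was not tested.

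Another 19 rows belong to the same families by their current RefSeq names but stand in the table under sequence names. Of these, 12 were tested and 0 were called by edgeR, and 2 had no count in any library. At an unadjusted p under 0.05, 3 of the 12 differed, against 10.7% of all tested genes. cpr-9 (F57F5.1), a cathepsin B-like gene, had 61.3, 89.7 and 94.8 CPM in mutant larvae, against 53.997, 44.2 and 51.3 CPM in wild-type larvae, with no overlap (log2 fold change 0.72, SE 0.19, edgeR adjusted p = 0.171). asp-12 (F21F8.4), which lies between asp-6 and asp-5, had 5.26, 8.37 and 7.42 CPM in mutant larvae, against 3.94, 3.97 and 3.51 CPM in wild-type larvae, also with no overlap (log2 fold change 0.88, SE 0.22, edgeR adjusted p = 0.156). Its neighbours asp-6 and asp-5, which were far more abundant, had log2 fold changes of 0.25 and 0.090. asp-13 (F28A12.4) had 81.2, 85.6 and 84.0 CPM in mutant larvae, against 125, 95.4 and 127 CPM in wild-type larvae, and lay lower in all 3 mutant libraries (log2 fold change -0.47, SE 0.15, edgeR adjusted p = 0.279).

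Among other lysosome and digestion genes, the cystatin gene cpi-1, which encodes an inhibitor of cysteine cathepsins, rose in the mutant. It stood at 80.5, 65.8 and 59.1 CPM in mutant libraries 1, 2 and 3, and at 28.6, 33.5 and 36.8 CPM in wild-type libraries 1, 2 and 3, with no overlap. The log2 fold change was 1.05 with an SE of 0.17 and a 95% interval from 0.67 to 1.44 (edgeR adjusted p = 0.0350). With any 1 library left out, in 6 fits, the gene no longer passed, at adjusted p values from 0.0564 (without div-1 mutant library 1) to 0.166 (without wild-type library 1), while the log2 fold change stayed between 0.92 and 1.15. Unlike most of the cathepsin genes, cpi-1 was highest in mutant library 1. The other cystatin gene, cpi-2, had 153, 165 and 141 CPM in mutant larvae, against 153, 157 and 189.8 CPM in wild-type larvae (log2 fold change -0.12, edgeR adjusted p = 0.810).

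**Figure D5:**
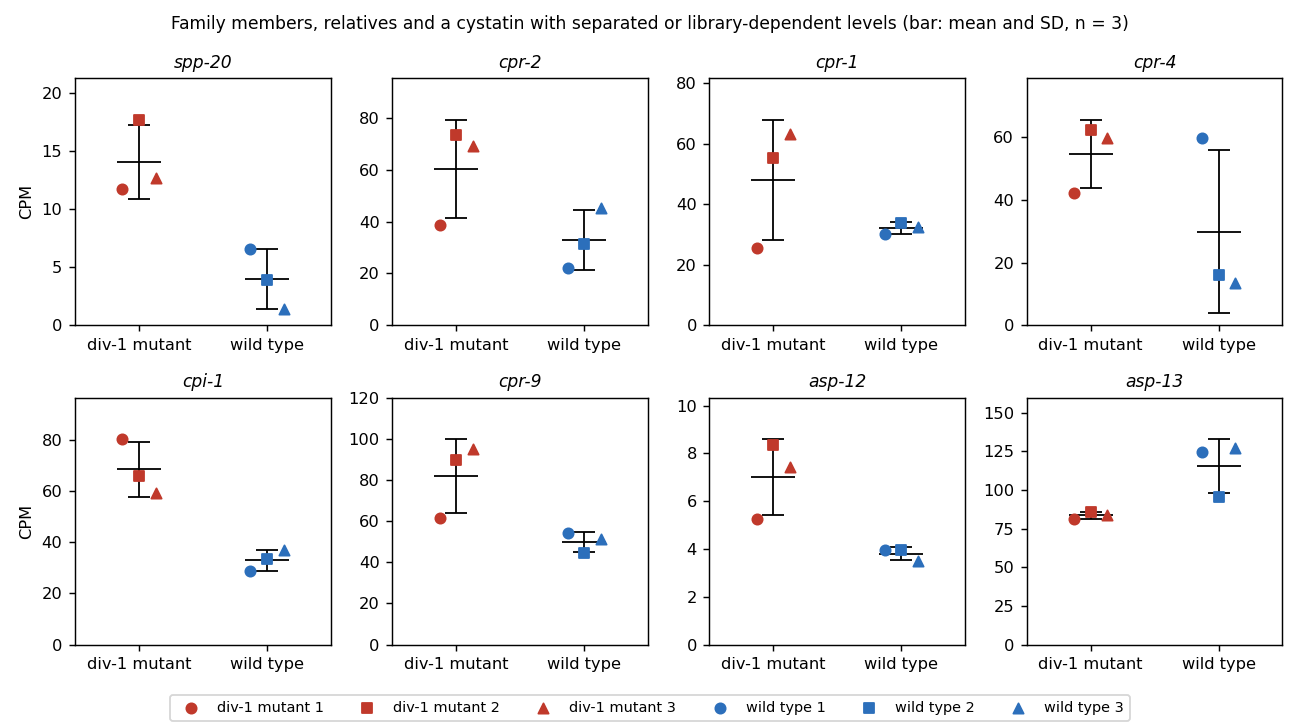
CPM of 8 genes in each library, from 0, with the mean and SD of each group; the axes differ. spp-20, cpi-1, cpr-9 and asp-12 show every mutant library above every wild-type library and asp-13 the opposite, cpr-4 has wild-type library 1 among the mutant libraries, and cpr-1 and cpr-2 have mutant library 1 within (cpr-2) or below (cpr-1) the wild-type range.

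cpi-1 was the 1 gene called of 125 tested in 7 lists of lysosome and digestion genes, 0.800%, a share near that of all tested genes. Their log2 fold changes had a median of -0.062. The 21 subunits of the vacuolar proton pump, which acidifies lysosomes, had a median of -0.10, and 1 of 21 was positive. Over all tested genes the median was -0.029 and 46% were positive. The summed level of the 21 subunits was 7268 to 7680.2 CPM in mutant larvae, against 7369 to 8758 CPM in wild-type larvae. No gene of that list passed the threshold or an unadjusted p under 0.05, and the range ran from -0.28 (vha-13) to 0.025 (vha-7) among genes of at least 5 CPM.

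In the other lists no gene passed edgeR's threshold. Of the 35 tested hydrolases that are not proteases, 2 had an unadjusted p under 0.05, both higher in the mutant, which is 5.71% against 8.26% of all tested genes. asm-1, an acid sphingomyelinase, had 22.2, 24.5 and 22.2 CPM in mutant larvae, against 12.8, 16.1 and 16.6 CPM in wild-type larvae, with no overlap (log2 fold change 0.60, edgeR adjusted p = 0.153). gba-2 (C33C12.8), a glucocerebrosidase gene, had the highest log2 fold change among hydrolase genes of at least 5 CPM at 1.28 and lipl-5, a lysosomal lipase gene, the lowest at -0.52. Below 5 CPM, the lipase genes lipl-3 and lipl-4 had lower values of -2.08 and -1.03, and both were highest in wild-type library 1. Among genes of at least 5 CPM in the list of 17 other peptidases, pcp-2 had the highest log2 fold change at 0.61 and pcp-4 the lowest at -0.41. With the same limit, the values ran from -0.20 (cln-3.2) to 0.78 (ncr-2) in the list of 22 membrane and gut granule genes, where cln-3.1 lay lower at -0.55 and under 5 CPM, and from -0.53 (apm-3) to 0.18 (ppk-3) in the list of 18 trafficking genes.

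Of the 10 regulators listed, pqm-1, a zinc finger factor of intestinal nuclei, had 60.7, 52.7 and 56.5 CPM in mutant larvae, against 36.7, 37.5 and 44.1 CPM in wild-type larvae, with no overlap (log2 fold change 0.52, edgeR adjusted p = 0.158). DESeq2 called pqm-1 and asm-1 as well as cpi-1 (DESeq2 adjusted p = 0.0308, 0.0283 and 1.1e-05), or 2.40% of the 125 genes against 3.42% of all genes. mxl-3, which represses lysosomal lipase genes in fed worms, had the lowest log2 fold change of that list at -0.92, and stood at 10.9, 8.16 and 8.59 CPM in mutant larvae, against 30.9, 7.64 and 14.0 CPM in wild-type larvae. Its highest value was again in wild-type library 1, without which the log2 fold change was -0.24 (edgeR adjusted p = 0.862).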

How the data were processed

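Gene expression was measured by RNA sequencing in 6 libraries of whole L1 larvae, grouped by the sample titles into 3 div-1 mutant and 3 wild-type libraries that the titles call biological replicates. The table deposited by the authors holds whole, unnormalised read counts for each feature. Per the submitters' processing notes, TopHat2 2.1.0, featureCounts 1.5.0 and DESeq2 1.8.1 were used. Genome build, annotation and strand setting were not given there. Per the labels' protocols, inserts of 18 to 36 bases were selected, which makes similar genes harder to tell apart.

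From the 99774 rows, 53925 repeat copies and 13 parts of the reporter construct were set aside, and the 45836 gene rows were analysed. Genes were tested with edgeR 4.0.16 (R 4.3.3): TMM normalisation, filterByExpr with the groups, a robust quasi-likelihood model with group as its only term, two-sided tests and Benjamini-Hochberg adjusted p under 0.05 over the 16289 genes that passed the filter. CPM values use effective library sizes, and SEs are the log2 fold change over the square root of the F statistic. DESeq2 1.42.0 and limma 3.58.1 were alternatives. Exon lengths, overlaps and neighbours came from Ensembl release 115 (WBcel235) and current names from RefSeq (WBcel235), matched by name for all 38 genes.

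The genes and the lists were chosen with earlier results of these data known. Values in every library are given at least for each gene called or with an unadjusted p under 0.05, the 10 of highest CPM, those of at least 10 CPM whose groups did not overlap, and the highest per length in each family (exon length, not coding length); pathway genes were named if called, or as the highest and lowest of their list at 5 CPM or more. asm-1, mxl-3, pqm-1, acs-2, icl-1, hacd-1, ech-9, lipl-2, lipl-3, lipl-4, cln-3.1, ifb-2, act-5, hlh-1, unc-119, myo-3 and the relatives given in full were named after their values were seen.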

Additional observations from a re-analysis of the deposited data

How the results depend on the processing

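The median log2 fold change of the 33 genes was 0.090 in the main fit and lay between -0.069 and 0.30 over the 15 alternatives. Both ends came with a library left out. The median deviation of the 33 genes from the group means had an SD between libraries of 0.32 (log2), with mutant library 1 at -0.49. Every move was smaller than this SD. The SD comes from the same genes and libraries, so it cannot show that the median is stable. The 146 genes called in all became 306 without the expression filter, 556 with DESeq2, 52 with the replicate block, 241 with mutant library 1 and wild-type library 3 both left out, and 36 (without div-1 mutant library 3) to 116 with 1 library left out. The 0 family genes called became 1 with DESeq2, 2 (cpr-1 and cpr-2) with both libraries left out, and 0 to 1 with 1 library left out (cpr-1 without mutant library 1, cpr-4 without wild-type library 1). The 1 pathway gene called became 3 with DESeq2 and 0 with the replicate block, and 0 with any 1 library left out, while cpi-1 kept its call under the other alternatives. The replicate numbers were not taken to pair the samples. Deviations of same-numbered libraries correlated at -0.22, 0.50 and -0.31 over genes, and not every library correlated best with its own number. The highest correlation between the groups was 0.62, for mutant library 1 with wild-type library 3. The lowest was -0.57, for mutant library 2 with wild-type library 3. The joint removal was chosen after seeing the data.

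Signs changed for 19 genes, with no call on either side. With library size only, cpr-6 had 0.0093 and spp-16 0.023. With both libraries left out, cpr-6 had 0.056, cpz-2 0.038, spp-8 0.18 and spp-16 0.017. spp-5 had -0.0070 with RLE factors and with DESeq2, -0.018 without the filter, -0.030 with limma voom and -0.034 with the replicate block. With 1 library left out, log2 fold changes ran from -0.28 to 0.090 for cpr-5, -0.21 to 0.094 for cpr-6, -0.35 to 0.054 for cpz-1, -0.29 to 0.11 for cpz-2, -0.076 to 0.36 for asp-1, -0.042 to 0.12 for asp-2, -0.046 to 0.36 for asp-3, -0.11 to 0.30 for asp-5, -0.50 to 0.016 for spp-1, -0.19 to 0.24 for spp-5, -0.061 to 0.46 for spp-6, -0.60 to 0.30 for spp-7, -0.32 to 0.18 for spp-8, -0.24 to 0.30 for spp-11, -0.73 to 0.042 for spp-13, -0.11 to 0.41 for spp-14, -0.30 to 0.17 for spp-16, -0.042 to 0.34 for spp-19 and -0.079 to 0.20 for spp-22. The cause was not tested.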
